A study of Mus musculus with 20 samples.

Results

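The 44 genes described here belong to the bone morphogenetic protein (BMP) and transforming growth factor-beta (TGF-beta) pathways. They were chosen by symbol, with earlier results of these data known: ligands, secreted antagonists and binding proteins, receptors, SMAD proteins and their repressors, and the Id genes. Of these, 43 were among the 15780 genes listed in the kidney count tables, and 41 reached 10 or more counts in 5 or more of the 20 libraries and were tested, as did 13990 genes in all. Bmper, which encodes a secreted BMP modulator, had 0 to 15 counts per library and Inhba, the activin A subunit, had 0 to 10, so neither was tested. Ltbp2, which encodes a latent TGF-beta binding protein, was not analysed here.

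Kidney RNA of 20 female NCr nude mice, homozygous and 7 wk old on arrival, was sequenced after poly(A) selection, with 1 library per mouse and 5 mice per group. Control mice received PBS by tail vein and vehicle by gavage. EIC mice received vehicle and 6 injections, every other day, of engineered immune complexes (EIC) of human galactose-deficient IgA1 (0.2 mg) and recombinant IgG (0.1 mg). EIC + S60 and EIC + S120 mice received the same injections with sparsentan, which blocks both the angiotensin II type 1 and the endothelin A receptor, at 60 or 120 mg/kg daily for 11 days. Kidneys were taken on day 12. The mice are athymic and the complexes are human proteins, so the model is a short exposure without a normal T cell compartment. The comparisons ask whether the complexes changed these genes and whether either dose of sparsentan did so on top of them.

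BMP ligands bind type I and type II serine/threonine kinase receptors, which phosphorylate SMAD1, SMAD5 and SMAD9; TGF-beta and activin act through SMAD2 and SMAD3, and both branches share SMAD4. The Id genes, which encode inhibitors of basic helix-loop-helix transcription factors, are classical BMP targets, and gremlin 1, encoded by Grem1, binds and blocks BMP ligands outside the cell. In the kidney, BMP7 is made by tubules and podocytes, and TGF-beta is best known for driving matrix deposition.

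Library totals were 12662345 to 38651781 counts. Control mice 651 and 652 had the deepest libraries, and no pair of libraries was identical. Each of the 15780 listed genes had counts in EIC mouse 65, while 234 to 654 of them were at 0 in each other library. Defining kidney markers were present in every library, with Slc34a1 of the proximal tubule at 3642 to 6408 CPM (counts scaled to a common library size with TMM factors) and Umod of the thick ascending limb at 1996 to 5750. Control mouse 653 stood apart by adipocyte transcripts. Its summed level over the 4 listed adipocyte markers was 288.9 CPM, against 23.4 to 72.1 in the other groups. This mouse also had the highest Aqp2 of the collecting duct, 1246 CPM against 187 to 482 in the other mice, and the lowest Slc34a1. The part of mouse 653 in the results was not tested, and each call is given below with its response to leaving that mouse out. In whole-kidney RNA, fewer cells of a type and less RNA per cell cannot be told apart.

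Within the pathway the Id genes had the highest levels per kb of exon. Id2 averaged 109.3 CPM per kb over the 4 groups, Id1 58.6 and Id3 40.01. The range over the 20 mice was 74.2 to 151.7 CPM per kb for Id2 and 25.8 to 106.1 for Id1, so these neighbors in the order overlapped between mice. A second tier held Bmp6 (17.9), Ski (17.1), Id4 (16.6), Bmp4 (16.5), Smad4 (15.8) and Bmp7 (14.2), also in CPM per kb, and the mouse ranges of these 6 genes overlapped as well. Grem1 had the lowest level of the 41 tested genes, 0.386 CPM per kb, just under Bmp2 (0.483) and Tgfb3 (0.53). It ranged from 0.0887 to 1.3 CPM per kb over the 20 mice.

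**Figure D1:**
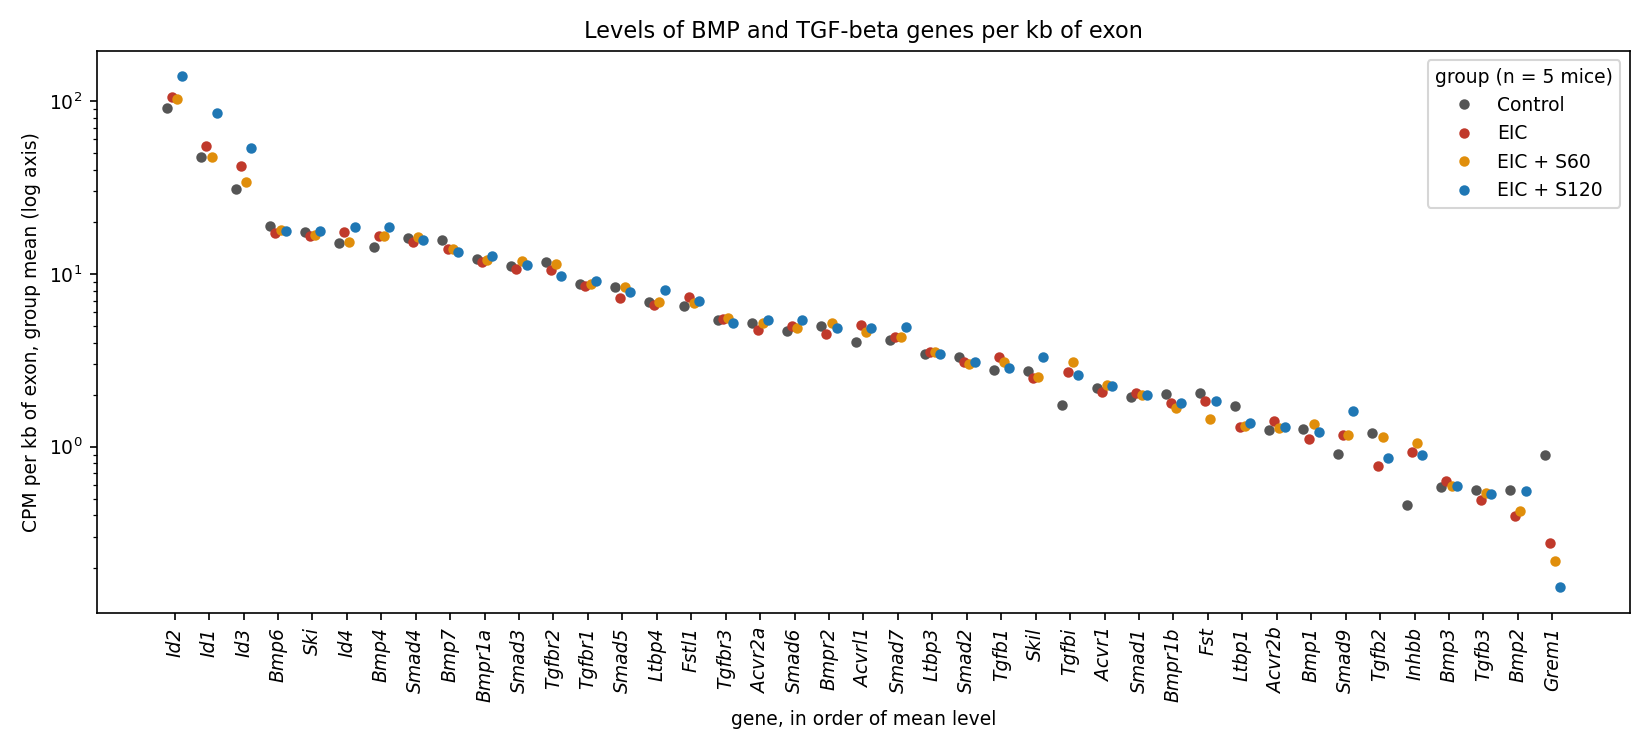
Mean level of each of the 41 tested genes in each group, in CPM per kb of exon on a log axis, with genes in order of their mean over the 4 groups (n = 5 mice per point). Id2, Id1 and Id3 lie at the left with the EIC + S120 points on top, and Grem1 lies at the right with its Control point above those of the 3 groups given EIC.

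Grem1 was the 1 member that differed between EIC and Control at an adjusted p under 0.05 (edgeR quasi-likelihood test, Benjamini-Hochberg over all 13990 genes), and it was lower in EIC. That is 1 of 41, or 2.44%, against 2.97% of all genes tested. It was also lower than Control in both sparsentan groups.

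Grem1 (ENSMUSG00000074934.3) lies at chr2:113746164-113758646 on the minus strand of GRCm38. The 250 bases before its RefSeq start (chr2:113758649-113758898, minus strand, GRCm38.p6) are shown because this gene fell in all groups given EIC. Those of Smad9 (chr3:54755332-54755581, plus strand) and Bmp4 (chr14:46390670-46390919, minus strand) are shown because these genes moved the other way at the high dose. Id1, Id2 and Id3 moved that way too. They are not shown because Id1 had no RefSeq window and the windows of Id2 and Id3 overlap annotated exons. Capitals mark GGCGCC, the GC-rich element bound by BMP-responsive SMADs, and CAGAC or its reverse complement GTCTG, the core SMAD-binding element.

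Grem1: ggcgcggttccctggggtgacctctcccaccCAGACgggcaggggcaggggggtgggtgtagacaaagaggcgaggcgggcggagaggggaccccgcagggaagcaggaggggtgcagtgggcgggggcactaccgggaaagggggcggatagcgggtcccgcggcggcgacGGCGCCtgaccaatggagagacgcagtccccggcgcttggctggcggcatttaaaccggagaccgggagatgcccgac
Smad9: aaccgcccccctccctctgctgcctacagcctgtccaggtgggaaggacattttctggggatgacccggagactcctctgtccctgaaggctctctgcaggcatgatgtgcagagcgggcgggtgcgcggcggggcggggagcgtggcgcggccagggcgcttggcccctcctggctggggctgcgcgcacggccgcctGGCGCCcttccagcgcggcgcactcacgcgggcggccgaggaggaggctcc
Bmp4: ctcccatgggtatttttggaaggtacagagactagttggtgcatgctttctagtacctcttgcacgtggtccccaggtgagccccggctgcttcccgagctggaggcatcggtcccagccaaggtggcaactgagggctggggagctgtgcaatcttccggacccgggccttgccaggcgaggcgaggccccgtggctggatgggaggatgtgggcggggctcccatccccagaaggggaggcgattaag

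Both strands were searched, and GGCGCC reads the same on each; the 2 motifs do not overlap in these windows. The Grem1 window holds 1 GGCGCC and 1 CAGAC, the Smad9 window 1 GGCGCC, and the Bmp4 window neither. Of all 32851 RefSeq windows of this length, 9.59% hold GGCGCC and 42.2% hold CAGAC in either orientation. Among the 28 tested members with a window in the RefSeq table, 11 hold GGCGCC and 13 hold CAGAC in any of their windows. These are counts of genes, while the percentages are shares of single windows, so they cannot be set against each other. A match is a description of the letters and does not show a bound site.

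In Control mice 651 to 655, Grem1 measured 4.48, 5.40, 2.12, 4.28 and 2.24 CPM. In EIC mice 65 to 69 it measured 1.21, 1.80, 1.08, 1.29 and 0.368 CPM. All 5 EIC mice were below the lowest Control mouse, a separation in this direction seen for 2.03% of all genes tested. The LFC (log2 fold change) was -1.71 with an SE of 0.36 and an adjusted p of 0.0094, a 3.27-fold lower level.

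In EIC + S60 mice 71 to 75, Grem1 measured 0.786, 0.462, 1.05, 1.37 and 0.884 CPM. In EIC + S120 mice 77 to 81 it measured 0.711, 1.07, 0.428, 0.378 and 0.596 CPM. Each of the 15 mice given EIC thus lay below each of the 5 Control mice, a pattern shared by 0.45% of all genes tested. Against the same 5 Control mice, the LFC was -2.04 for EIC + S60 (adjusted p = 0.0032) and -2.54 for EIC + S120 (adjusted p = 2.3e-04), 4.1-fold and 5.83-fold lower.

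The step from EIC to EIC + S120 had an LFC of -0.83 with a 95% interval of -1.45 to 0.05 and an adjusted p of 0.58, and that from EIC to EIC + S60 an LFC of -0.33 with an interval of -0.99 to 0.51. Neither passed the test, nor did the difference between the doses (LFC -0.51, interval -1.21 to 0.29, adjusted p = 0.83). The counts behind these values were low, 29 to 215 in Control and 6 to 31 in the other groups.

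All 3 calls against Control held in each of the 20 fits that left out 1 mouse. Without both deep Control libraries, 651 and 652, the EIC call was lost (LFC -1.32, adjusted p = 0.114), as was the EIC + S60 call (LFC -1.65, adjusted p = 0.058), while the EIC + S120 call stood (LFC -2.15, adjusted p = 0.0055). Control mouse 653, with the adipocyte transcripts, had the lowest Grem1 of the Control mice, and the EIC LFC was -1.86 without it. Summed fibroblast and mural markers (9 of 9 listed), which include the mesenchymal cells where gremlin 1 is usually found, were at 161 to 241 CPM in Control, 106 to 252 in EIC, 140 to 291 in EIC + S60 and 169 to 306 in EIC + S120, with overlapping ranges.

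**Figure D2:**
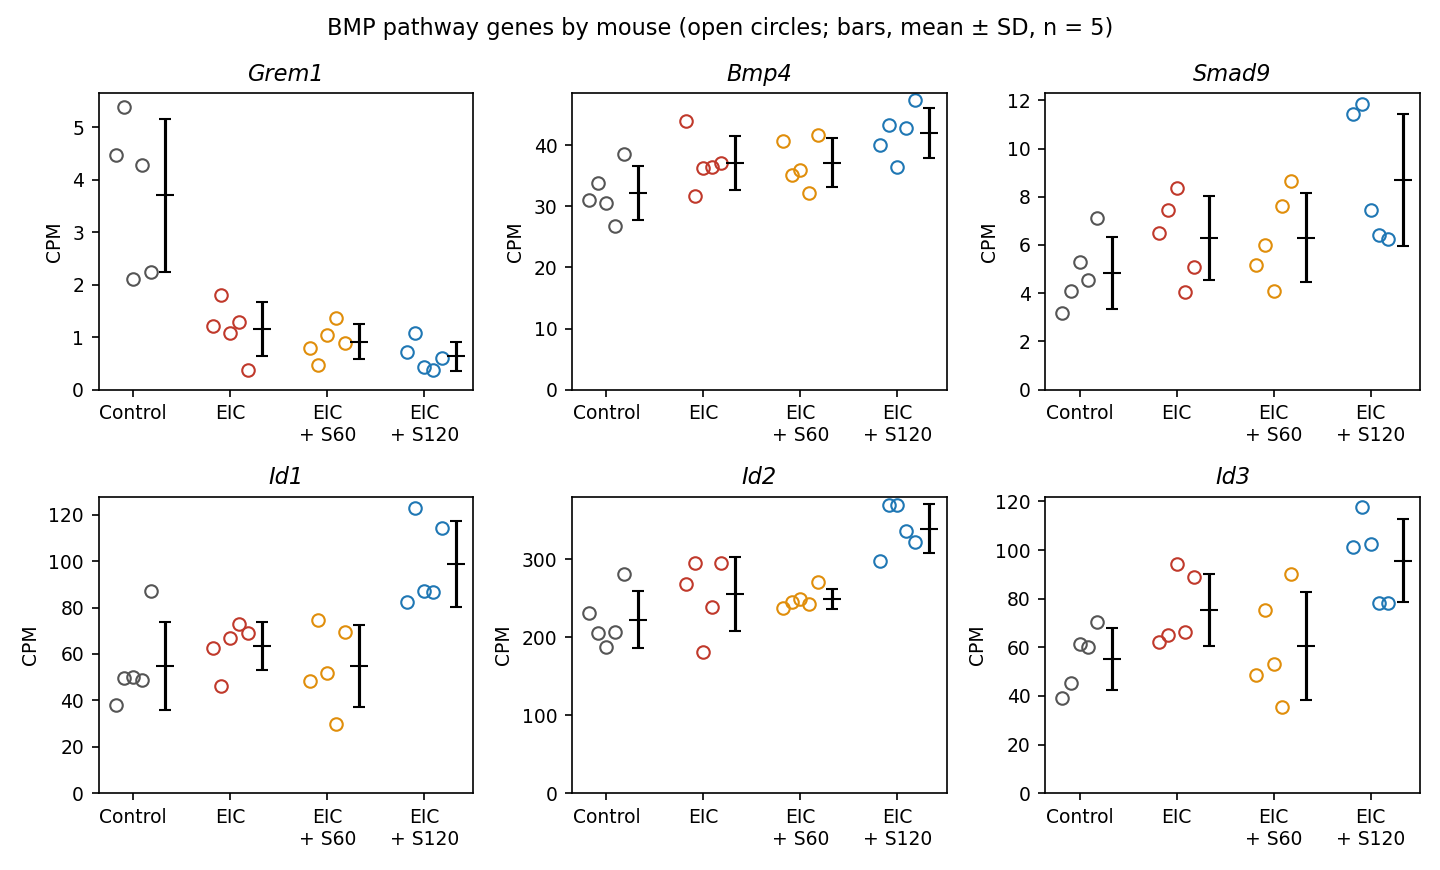
CPM of the 6 members called in any comparison, by group, with 1 circle per mouse and bars of mean ± SD (n = 5). Grem1 in Control lies above every other mouse, and Id2 in EIC + S120 lies above every other mouse, while the other 4 genes overlap more between groups.

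Against Control, EIC + S120 had 6 of the 41 members past the test (14.6%, against 5.55% of all genes tested). EIC + S60 had 1, which was Grem1 (2.44%, against 1.29%). Because the members were chosen with earlier results of these data known, a share above that of all genes is not a test of the pathway. In EIC + S120, Id1, Id2, Id3, Smad9 and Bmp4 were higher than Control, 5 of 41 against 2.89% of all genes in that direction. Grem1 was lower, 1 of 41 against 2.67%. Thus 3 of the 4 Id genes, 1 SMAD and 1 ligand of the BMP branch were higher, with Id1, Id3 and Smad9 at adjusted p values of 0.038 to 0.049, and Grem1, which encodes a secreted antagonist, was lower. The median LFC over the 41 members was 0.04 in this comparison and ranged from -2.54 to 1.00 over them, beside a median of -0.01 over all genes tested. At an unadjusted p under 0.05 there were 13 members, 31.7% against 20% of all genes. The ranges of 5 members did not overlap between these groups, with Id2, Id3 and Inhbb higher and Bmp7 and Grem1 lower, 12.2% against 5.82% of all genes. With DESeq2 the members called against Control numbered 2 in EIC, 2 in EIC + S60 and 7 in EIC + S120, against 5.03%, 2.57% and 8.02% of all genes, and with limma-voom 1, 1 and 6, against 2.89%, 1.39% and 5.45%.

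Id2 (chr12:25093799-25097140, minus strand) gave the firmest of the higher values. It measured 231, 205, 187, 207 and 282 CPM in Control mice, 268, 296, 181, 238 and 295 in EIC mice, and 238, 246, 248, 242 and 271 in EIC + S60 mice. In EIC + S120 mice it measured 297, 370, 370, 336 and 322 CPM. Each EIC + S120 mouse lay above all the other 15 mice, although the lowest, 297, was close to the highest EIC mouse at 296. Only 0.05% of all genes tested had their 5 EIC + S120 values above all others. The LFC against Control was 0.61 with an SE of 0.12 and an adjusted p of 0.0028, and it was called under all 26 alternative settings.

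Id1 (chr2:152736251-152737410, plus strand) measured 38.0, 49.6, 50.1, 49.0 and 87.2 CPM in Control mice. In EIC mice it measured 62.5, 46.1, 66.7, 73.1 and 69.0 CPM, and in EIC + S60 mice 48.6, 74.5, 51.9, 29.9 and 69.4. In EIC + S120 mice it measured 82.6, 123, 87.2, 86.9 and 114 CPM. The EIC + S120 mice lay above every EIC and every EIC + S60 mouse, and Control mouse 655 alone reached into their range. The LFC against Control was 0.86 with an SE of 0.22 and an adjusted p of 0.038. The call was lost without Control mouse 651, 652, 653 or 654 or EIC + S120 mouse 78, 79, 80 or 81, where the LFC was 0.76 to 0.91 and the adjusted p 0.053 to 0.095, and with only the 10 libraries compared (adjusted p = 0.062).

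Id3 (chr4:136143497-136145755, plus strand) measured 39.0, 45.2, 61.3, 60.1 and 70.3 CPM in Control mice and 101, 118, 102, 78.2 and 78.3 in EIC + S120 mice. These ranges did not overlap. EIC mice were at 62.1 to 94.2 CPM and EIC + S60 mice at 35.3 to 90.4, overlapping both. The LFC of EIC + S120 against Control was 0.80 with an SE of 0.21 and an adjusted p of 0.045. The call was lost without Control mouse 651, 652, 653 or 654, EIC mouse 69, EIC + S60 mouse 73, or any EIC + S120 mouse, at an LFC of 0.70 to 0.87 and an adjusted p of 0.0501 to 0.103.

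Id4, the fourth of the family, did not pass the test. Its level was 48.9 to 68.0 CPM in Control and 59.5 to 92.6 in EIC + S120, with overlapping ranges, and its LFC was 0.29 with an adjusted p of 0.20. Exons of genes on the other strand overlap Id4 over 82 and 171 bases, and since the strand setting of the counting is not given in the sources used here, its counts may hold reads of those genes.

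Smad9, which encodes the receptor SMAD with the lowest level per kb of those that carry BMP signals, measured 3.18, 4.09, 5.29, 4.56 and 7.12 CPM in Control mice. In EIC + S120 mice it measured 11.4, 11.8, 7.46, 6.43 and 6.25 CPM. Mice 77 and 78 were the highest, and mice 80 and 81 lay within the Control range. The LFC was 0.87 with an SE of 0.25 and an adjusted p of 0.049. This call stood at the threshold. It was lost without Control mouse 651, 652, 653 or 654, EIC mouse 65, 66 or 69, EIC + S60 mouse 71, 72 or 74, or EIC + S120 mouse 77, 78 or 79, at an LFC of 0.74 to 0.92 and an adjusted p of 0.0505 to 0.126. It was also lost with no filter on low counts (adjusted p = 0.051) and with only the 10 libraries compared (adjusted p = 0.076).

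Bmp4, which encodes a ligand of the BMP2/4 class, measured 31.0, 33.8, 30.5, 26.7 and 38.6 CPM in Control mice. In EIC + S120 mice it measured 40.002, 43.3, 36.4, 42.9 and 47.4 CPM. The groups overlapped only through Control mouse 655 and EIC + S120 mouse 79. The LFC was 0.39 with an SE of 0.10 and an adjusted p of 0.022. The call was lost without Control mouse 653 or 654 or EIC + S120 mouse 78, 80 or 81, at an LFC of 0.33 to 0.38 and an adjusted p of 0.053 to 0.075. An exon of Gm15217 on the other strand overlaps Bmp4 over 89 bases.

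Without Control mice 651 and 652 together, 2 of the 6 calls in EIC + S120 against Control remained, those of Grem1 and Id2 (for Id2, LFC 0.60, adjusted p = 0.025). The others then had LFCs of 0.68 for Id1, 0.59 for Id3, 0.63 for Smad9 and 0.40 for Bmp4, at adjusted p values of 0.18, 0.21, 0.24 and 0.071.

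None of the 41 members passed the edgeR test in EIC + S60 against EIC, where 0% of all genes did. At an unadjusted p under 0.05 there were 3 (Bmpr2, Smad5 and Tgfb2), 7.32% of members against 6.05% of all genes, and DESeq2 and limma-voom called 0 members, against 0.0357% and 0% of all genes. None passed in EIC + S120 against EIC either, where 0.0572% of all genes did. There, 5 members had an unadjusted p under 0.05 (Acvr2a, Grem1, Id1, Id2 and Skil), 12.2% against 8.45%, and DESeq2 and limma-voom again called 0 members, against 0.465% and 0.0286%.

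Between the doses, EIC + S120 against EIC + S60, edgeR called 0 members, where it called 0.0643% of all genes. At an unadjusted p under 0.05 there were 7 (Id1, Id2, Id3, Id4, Skil, Tgfb2 and Tgfbr2), 17.1% against 8.08% of all genes, limma-voom called 0 (against 0.0572% of all genes) and DESeq2 called Id1 and Id2, 2 of 41 against 0.579%. For Id1 the LFC between doses was 0.85 with a 95% interval of 0.44 to 1.36 and an edgeR adjusted p of 0.23, and for Id2 it was 0.44 with an interval of 0.20 to 0.69 and an adjusted p of 0.17. Against EIC, Id1 in EIC + S120 had an LFC of 0.64 (interval 0.18 to 1.09, adjusted p = 0.45) and Id2 0.41 (interval 0.18 to 0.67, adjusted p = 0.28). The comparisons with EIC, with EIC + S60 and with Control share the EIC + S120 mice.

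The ranges of Id1 and Id2 in EIC + S120 lay wholly above those of EIC, 2 of 41 members against 0.65% of all genes, and above those of EIC + S60. Tgfbr2, the type II TGF-beta receptor, separated the doses in the other direction, with EIC + S120 at 72.2 to 87.4 CPM below EIC + S60 at 87.7 to 102. Those were 3 of 41 members against 1.66% of all genes, and the Tgfbr2 LFC between doses was -0.23 with an adjusted p of 0.45.

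The summed level of the fast-response genes (8 of 8 listed, among them Fos and Egr1) was also highest in EIC + S120. Gene by gene, 7 of the 8 had a positive LFC in EIC + S120 against EIC (median 0.79) and 8 of 8 against EIC + S60 (median 0.94). Against Control, 1 of the 8 had a positive LFC, with a range of -1.48 to 0.86 and a median of -0.27. None of the 8 passed the edgeR test in these comparisons. Their summed level was 188 to 336 CPM in Control, 79.2 to 178 in EIC, 102 to 159 in EIC + S60 and 241 to 499 in EIC + S120, so every EIC + S120 mouse lay above every EIC and EIC + S60 mouse, as for Id1 and Id2. The median summed level was 257 CPM in Control, 105 in EIC and 122 in EIC + S60. The Control means of Id1 and Id2 were close to or below those of EIC and EIC + S60. The part of the fast-response genes in the Id values was not tested.

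**Figure D3:**
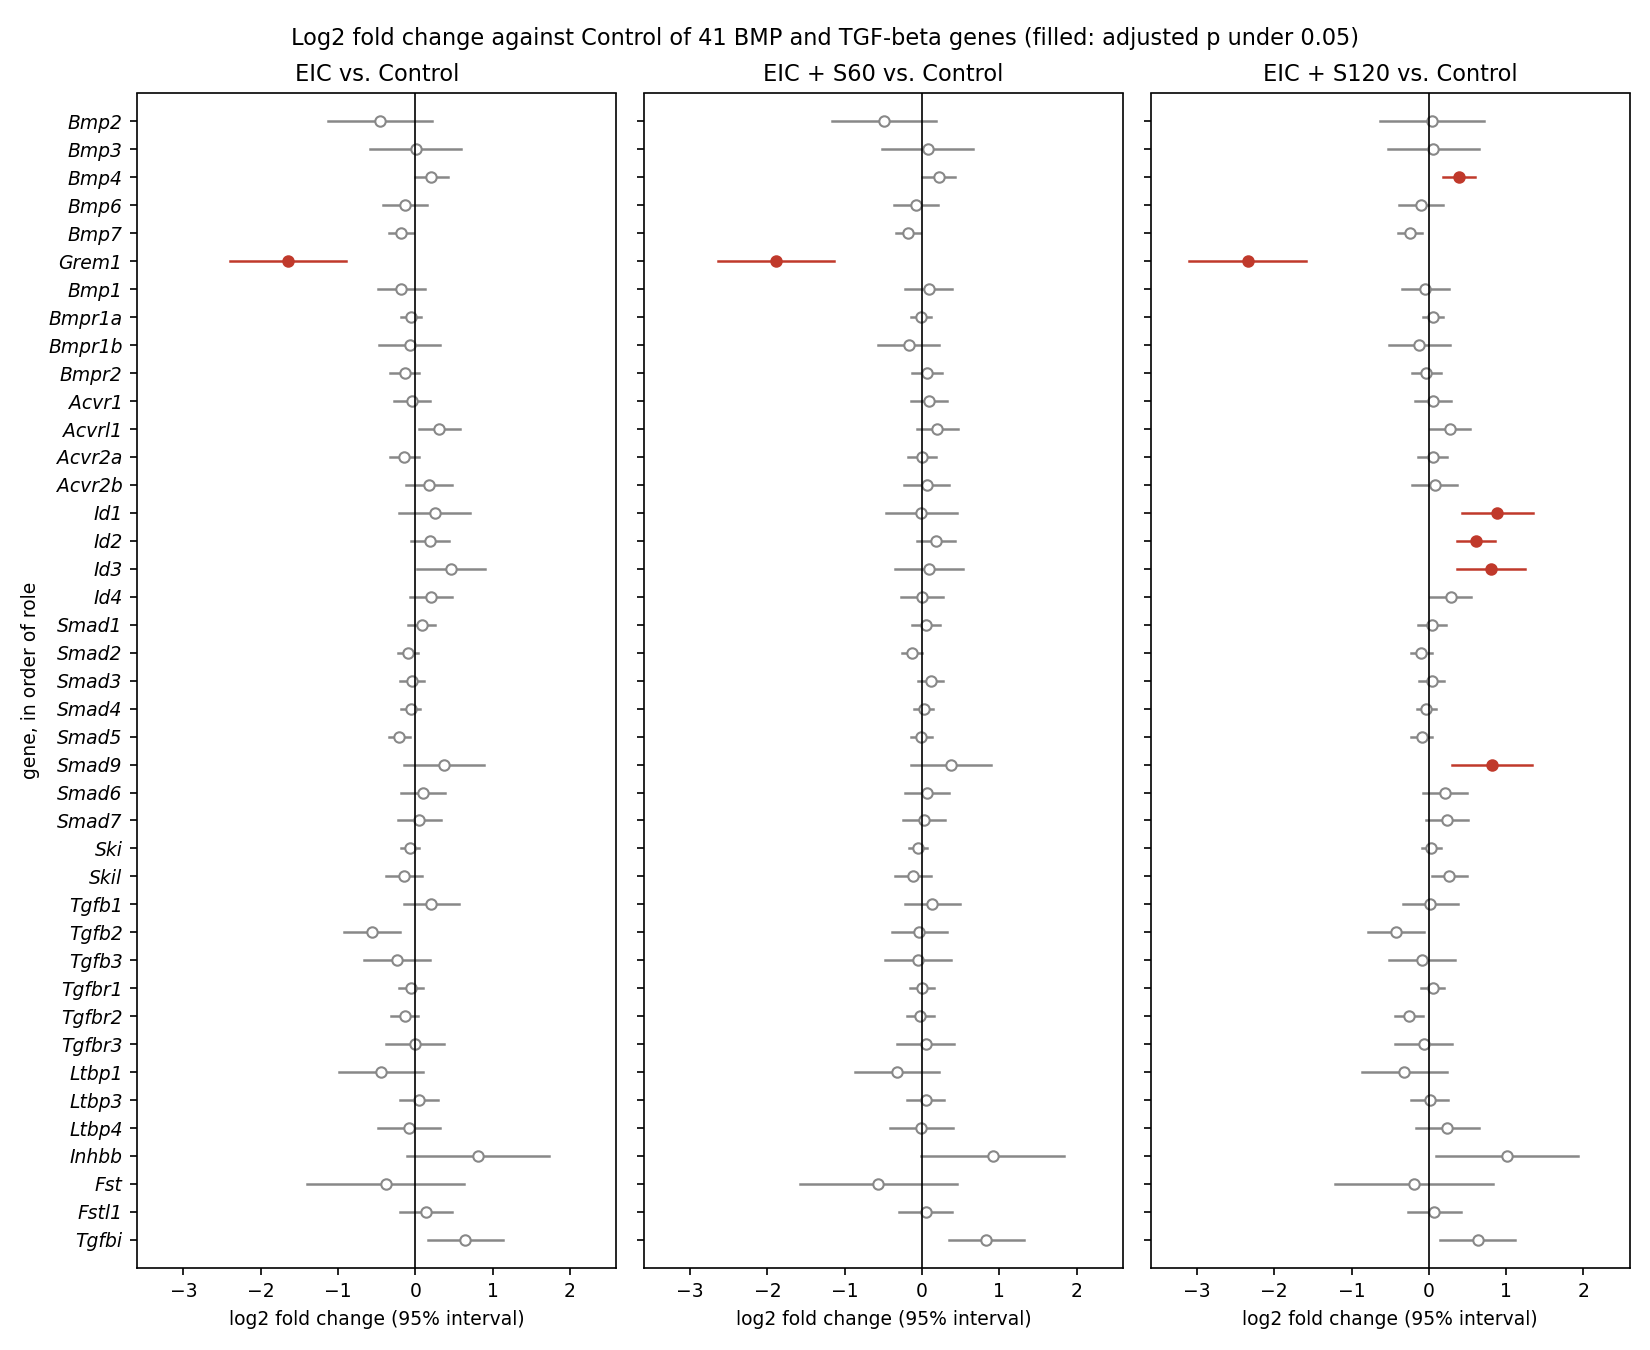
LFC of each of the 41 tested genes against Control in EIC, EIC + S60 and EIC + S120, with 95% intervals from limma-trend; filled red points passed the edgeR test at an adjusted p under 0.05. Grem1 lies left of 0 in all 3 panels, and Id1, Id2, Id3, Smad9 and Bmp4 are filled to the right of 0 in the EIC + S120 panel.

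Among the other BMP ligands, Bmp7, the main BMP of tubular epithelium, missed the threshold. It measured 59.6 to 68.1 CPM in Control and 47.2 to 58.3 in EIC + S120, ranges that did not overlap, with an LFC of -0.24, an SE of 0.07 and an adjusted p of 0.055. DESeq2 called it. Bmp2, Bmp3 and Bmp6 had LFCs of -0.49 to 0.11 against Control in the 3 EIC groups. None was called, beside 1.29% to 5.55% of all genes tested in these comparisons with Control. Bmp1, a procollagen protease that also cleaves the BMP inhibitor chordin, lay between -0.20 and 0.08 there.

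The 7 tested BMP and activin receptors (Bmpr1a, Bmpr1b, Bmpr2, Acvr1, Acvrl1, Acvr2a and Acvr2b) had LFCs of -0.25 to 0.34 against Control. In each of the 6 comparisons 0 of 7 were called, where 0% to 5.55% of all genes tested were. With shares this low, 0 calls among 7 genes does not show that the receptors were unchanged. Bmpr1a and Bmpr2, the receptors of BMP2 and BMP4, were at 67.0 to 88.4 and 68.9 to 113 CPM over all 20 mice. Acvrl1, the endothelial receptor of BMP9, measured 14.6 to 19.5 CPM in Control and 14.8 to 26.7 in EIC, an LFC of 0.34 with an adjusted p of 0.15.

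Of the receptor SMADs and Smad4, Smad9 was the 1 called of 6, in EIC + S120 against Control, where 5.55% of all genes tested were called. Smad1 and Smad5, which carry the same signals, had LFCs of 0.05 and -0.09 in EIC + S120 against Control. Smad5 was at 57.0 to 68.2 CPM in Control and 51.4 to 58.1 in EIC, an LFC of -0.21 with an adjusted p of 0.10, and its exons overlap Gm27301 over 100 bases of the same strand. Smad2 and Smad3, of the TGF-beta branch, had LFCs of -0.13 to 0.11 against Control in the 3 EIC groups.

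Smad6 and Smad7, which inhibit the pathway and are themselves induced by it, had LFCs of 0.21 and 0.25 in EIC + S120 against Control, at adjusted p values of 0.42 and 0.30. Neither passed the test. Skil, which encodes the SMAD repressor SnoN, measured 26.6, 22.9, 31.0, 25.1 and 27.5 CPM in Control, 29.7, 19.9, 22.2, 22.9 and 26.0 in EIC, and 34.1, 34.7, 27.7, 32.5 and 30.8 in EIC + S120. Its EIC + S120 range overlapped both others, and its LFC against EIC was 0.40 with an adjusted p of 0.24. Ski, its paralog, had an LFC of 0.10 in the same comparison.

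The TGF-beta ligands and receptors had 0 of 6 called in every comparison, where 0% to 5.55% of all genes tested were called. Among so few genes, 0 calls does not show that they were unchanged. Tgfb2 came closest. It measured 10.5, 5.57, 4.48, 8.03 and 6.27 CPM in Control, 5.31, 4.01, 4.43, 4.50 and 4.26 in EIC, and 6.82, 7.22, 6.22, 5.20 and 7.32 in EIC + S60. Control mouse 653 lay among the EIC mice, and the EIC + S60 mice lay within the Control range. The LFC of EIC against Control was -0.64 with an SE of 0.17 and an adjusted p of 0.056, and the gene was called by DESeq2 and in the fits without Control mouse 652 or 653. EIC + S60 against EIC had an LFC of 0.54 and an adjusted p of 0.74. Gm29491 overlaps Tgfb2 exons over 124 bases of the other strand.

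Tgfb1, the TGF-beta isoform most often tied to fibrosis, was at 13.0 to 15.2 CPM in Control and 11.4 to 23.5 in EIC, with an LFC of 0.26 and an adjusted p of 0.48. Tgfb3, Tgfbr1, Tgfbr2 and Tgfbr3 had LFCs of -0.26 to 0.05 against Control. The latent TGF-beta binding proteins Ltbp1, Ltbp3 and Ltbp4, which anchor the latent ligand to matrix, lay between -0.40 and 0.21. Of these, 0 of 3 were called against Control, beside 1.29% to 5.55% of all genes tested.

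Inhbb, the activin B subunit, measured 2.53, 0.853, 1.68, 1.90 and 2.79 CPM in Control and 2.84, 4.05, 3.42, 4.29 and 4.53 in EIC + S120. These ranges did not overlap, but EIC mouse 68 at 9.94 and EIC + S60 mouse 71 at 11.01 stood far above the other mice of their groups. The EIC + S120 LFC was 1.00 with an SE of 0.44 and an adjusted p of 0.30. The follistatins Fst and Fstl1, which bind activins or BMPs, had LFCs of -0.46 to 0.16 against Control.

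Tgfbi, a matrix protein named for its induction by TGF-beta, measured 8.52, 6.07, 3.55, 8.16 and 6.42 CPM in Control, 8.40, 8.25, 15.3, 8.65 and 10.2 in EIC, and 17.2, 11.4, 12.3, 6.73 and 10.9 in EIC + S60. Its LFC was 0.63 in EIC (adjusted p = 0.17), 0.83 in EIC + S60 (adjusted p = 0.092) and 0.58 in EIC + S120 (adjusted p = 0.17). None of the 3 passed the edgeR test. Summed macrophage markers (6 of 6 listed) were at 73.2 to 94.4 CPM in Control, 78.5 to 211 in EIC, 75.4 to 118 in EIC + S60 and 79.9 to 107 in EIC + S120. Their part in the Tgfbi values was not tested.

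Of 53 other genes of the same pathways, also chosen with earlier results of these data known, 50 were listed and 42 tested. Against Control, 2 of 42 were called in EIC, 1 in EIC + S60 and 3 in EIC + S120, all lower, which is 4.76%, 2.38% and 7.14%, against 2.97%, 1.29% and 5.55% of all genes tested. None was called by edgeR in the 3 comparisons among EIC groups. At an unadjusted p under 0.05 there were 3 in EIC + S60 against EIC (7.14%, against 6.05% of all genes), 5 in EIC + S120 against EIC (11.9%, against 8.45%) and 4 between the doses (9.52%, against 8.08%). The median LFC of the 42 was -0.08 in EIC, -0.07 in EIC + S60 and -0.05 in EIC + S120, beside -0.01 over all genes tested in each.

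Itgb6 encodes the beta subunit of the epithelial integrin that releases active TGF-beta from its latent complex. It measured 81.0, 74.3, 58.4, 68.4 and 75.4 CPM in Control and 47.4, 29.6, 33.1, 33.3 and 38.3 in EIC. In EIC + S60 mice it measured 41.8, 43.5, 35.7, 48.0 and 48.8 CPM and in EIC + S120 mice 39.5, 28.7, 34.3, 37.1 and 29.5. Every Control mouse lay above every mouse given EIC, a pattern shared by 0.45% of all genes tested. The LFC against Control was -0.98 in EIC (adjusted p = 0.00011), -0.72 in EIC + S60 (adjusted p = 0.0029) and -1.08 in EIC + S120 (adjusted p = 1.5e-05), with an SE of 0.12 in each. All 3 calls held under all 26 alternative settings.

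Neo1, which encodes the BMP coreceptor neogenin, fell in EIC (LFC -0.35, adjusted p = 0.022) and in EIC + S120 (LFC -0.33, adjusted p = 0.019), from 72.5 to 97.5 CPM in Control to 53.4 to 70.5 and 58.8 to 67.0. The EIC call was lost without Control mouse 651 or EIC mouse 68 (adjusted p = 0.072 to 0.074) and the EIC + S120 call without Control mouse 651 or EIC + S120 mouse 81 (adjusted p = 0.054 to 0.067). Without both deep Control libraries neither stood (adjusted p = 0.106 in EIC and 0.076 in EIC + S120), and the EIC call was also lost when only the 10 libraries compared were fitted (adjusted p = 0.097).

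Sostdc1 encodes a BMP antagonist of the distal nephron. It was at 74.7 to 111 CPM in Control and 62.3 to 87.8 in EIC + S120, with an LFC of -0.43 and an adjusted p of 0.033. That call was lost without Control mouse 652, 653, 654 or 655 or EIC + S120 mouse 78, 79, 80 or 81 (LFC -0.44 to -0.37, adjusted p = 0.0501 to 0.099), and with only the 10 libraries compared (adjusted p = 0.056). The 5 thick ascending limb and distal tubule markers had a median LFC of -0.35 in the same comparison, with 1 positive. Their part in the Sostdc1 values was not tested.

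**Figure D4:**
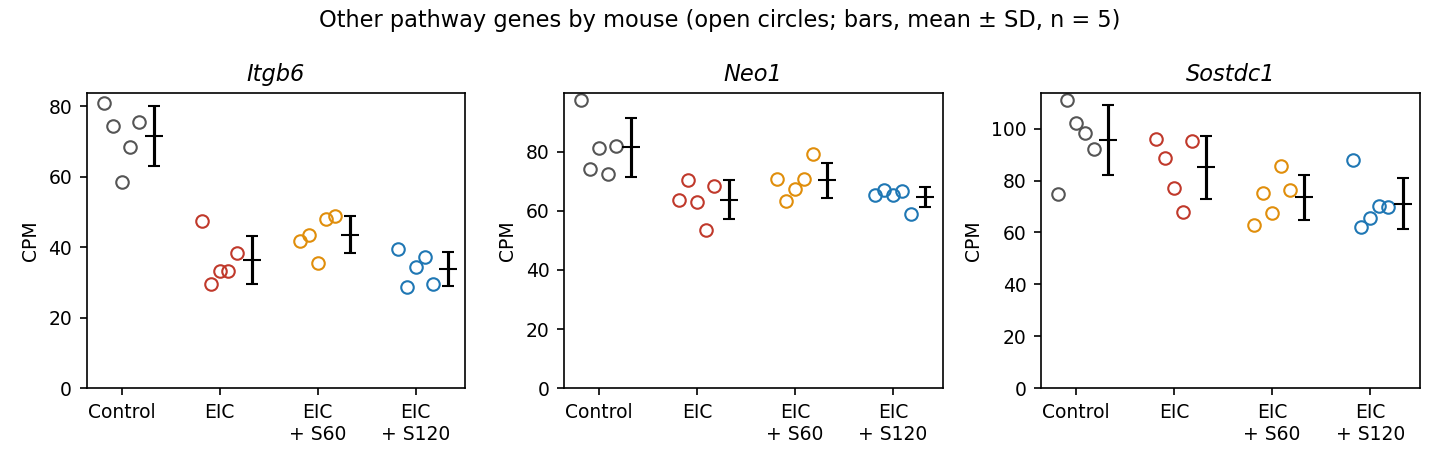
CPM of the 3 called genes among the other pathway genes, by group, with 1 circle per mouse and bars of mean ± SD (n = 5). Itgb6 in Control lies above all 15 other mice, while Neo1 and Sostdc1 shift less, and Sostdc1 overlaps between groups.

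Of the 20 TGF-beta response genes, which include collagens, Fn1 and Acta2, 19 were listed and tested. By edgeR, 0 were called in any of the 6 comparisons, where 0% to 5.55% of all genes tested were called. At an unadjusted p under 0.05 there were 2 in EIC, 1 in EIC + S60 and 3 in EIC + S120 against Control, which is 10.5%, 5.26% and 15.8%, each below the 16.8%, 12.7% and 20% of all genes. The smallest p in EIC + S120 against Control was that of Ctgf, a matricellular protein, with an LFC of 0.74 and an adjusted p of 0.065. Vim, an intermediate filament of mesenchymal cells, had LFCs of 0.44, 0.52 and 0.47 in EIC, EIC + S60 and EIC + S120 against Control, at adjusted p values of 0.15, 0.13 and 0.094. The median LFC of the 19 was -0.17, 0.07 and 0.24 in these comparisons.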

How the data were processed

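Whole-kidney poly(A) RNA of 20 mice was sequenced. Per the labels and the submitters' processing notes, the authors used Trimmomatic 0.36 for trimming and STAR 2.5.2b with GRCm38 for alignment, and deposited raw counts per gene from featureCounts (Subread 1.5.2); the strand setting and annotation were not given in the sources used here. Members and gene lists were chosen with earlier results of these data known. Every member may be named; values per mouse are given for members called in any comparison and for others of their role, and, of the other lists, genes called or with the smallest p. Some items of the lists are not reported here and are not counted in them.

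Genes reaching 10 counts in 5 or more libraries were fitted in 1 edgeR model with TMM scaling (edgeR 4.0.16 in R 4.3.3, robust quasi-likelihood test, either direction), with 1 coefficient per group and Benjamini-Hochberg adjustment over all 13990 genes; called means an adjusted p under 0.05. SEs and 95% intervals are from limma-trend (limma 3.58.1) on log2 CPM (prior count 2), so an interval need not be centered on the edgeR LFC. Levels per kb use GENCODE vM21 exon lengths and promoter windows are RefSeq's. Totals of 12662345 to 38651781 counts and the spread between mice limit the precision, and the counts of Grem1 were low. The code was tested on simulated data. Alternatives were RLE scaling, no filter, DESeq2 1.42.0, limma-voom, only the 10 libraries compared, omission of both deep Control libraries and omission of each library. Mice of a group are separate animals, and mouse numbers are not shared between groups.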

Additional observations from a re-analysis of the deposited data

Results flagged for a closer look

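In each group of 5 mice, a member was flagged when its highest or lowest mouse stood apart from the rest by more than 0.71 of the group's range (Dixon's 95% limit). Chance flags about 1 in 20 groups, and 12 of 164 member and group pairs were flagged. Control mouse 653, which held adipocyte transcripts, was high for Bmp3 (7.16 CPM, against 3.33 to 3.89 in the other Control mice), Bmpr1a (86.0, against 74.4 to 77.5) and Ltbp3 (38.3, against 27.6 to 30.1). EIC + S120 mouse 77 was high for Bmpr1b (16.2 CPM, against 8.07 to 9.83), Acvr2b (6.40, against 4.60 to 5.01) and Fstl1 (48.7, against 28.5 to 32.6).

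Other EIC + S120 mice were high for Smad4 (62.0 CPM in mouse 80, against 56.3 to 57.8) and Smad5 (63.4 in mouse 78, against 56.8 to 58.5) and low for Bmpr2 (75.5 in mouse 81, against 87.4 to 92.6). Among EIC mice, Ski was low in mouse 65 (84.1 CPM, against 92.8 to 96.0), Fst low in mouse 66 (1.34, against 7.95 to 13.0) and Inhbb high in mouse 68 (9.94, against 2.21 to 2.94). None of these genes was called in a comparison.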

How the results depend on the processing

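No direction of a called gene turned under the 26 alternatives. Members called in EIC against Control numbered 1, and 2 by DESeq2 (Grem1 and Tgfb2), 0 without both deep Control libraries and 1 to 2 when each mouse was left out in turn, with 2 without Control mouse 652 or 653, EIC mouse 66 or EIC + S60 mouse 75. In EIC + S60 against Control the number was 1, and 2 by DESeq2 (Grem1 and Tgfbi), 0 without both deep Control libraries and 1 to 2 with each mouse left out, with 2 without EIC + S60 mouse 74. In EIC + S120 against Control it was 6, and 2 without both deep Control libraries (Grem1 and Id2) and 2 to 7 with each mouse left out. It was 2 without Control mouse 654 or EIC + S120 mouse 78, and 3 without Control mouse 651 or EIC + S120 mouse 79, 80 or 81. Without Control mouse 653, Grem1 and Id2 kept their calls and Bmp4, Id1, Id3 and Smad9 lost theirs, while Bmp7 and Tgfb2 were called. Between the doses the number called was 0, and 2 by DESeq2 (Id1 and Id2) and 1 with only the 10 libraries compared (Id2). Other counts stayed within 1.5 times. No paired analysis was possible because the groups share no mouse numbers. The 5 mice per group and the low counts of Grem1 limit the precision.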
